A study of Mus musculus and Rattus norvegicus with 32 samples.

Results

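The mitochondrial genome-encoded transcripts are the genes whose symbol starts with mt- in any case. They were taken from all 4 count tables of the series, which hold 50 such genes among 88370: 37 of 55487 genes in mouse and 13 of 32883 in rat. The 3 mouse tables share the same 37, namely 13 mRNAs, 2 ribosomal RNAs and 22 transfer RNAs. The rat table holds the 13 mRNAs. The study asked what loss or gain of METTL5, an RNA methyltransferase, does to the heart. Each table has 4 libraries in each of 2 groups. At 1 month, hearts of C57BL/6 mice labelled METTL5-KO, a whole-body knockout, were set against control hearts. At 3 months, hearts of C57BL/6 mice labelled METTL5-cKO, in which Cre under the Myh6 promoter removes floxed exons of METTL5 in cardiomyocytes, were set against control littermates. The TAC table makes the same comparison in mice of 3 months, 4 weeks after transverse aortic constriction, a surgical narrowing of the aorta that loads the heart with pressure. All 3 mouse tables are of whole hearts, so every cell type of the heart contributes RNA. In the rat table, neonatal ventricular cardiomyocytes (NRVMs) of Sprague Dawley rats at postnatal day 2 received 20 µM phenylephrine (PE) for 24 h in both groups and carried an adenovirus for GFP (AdGFP) or for human METTL5 (AdMETTL5). Library totals were 19899033 to 21804907 counts in mouse and 14324700 to 18085339 in rat.

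Mitochondria keep a small circular genome of their own. It is transcribed from both strands as long precursors, which are cut apart mostly at the transfer RNAs that lie between the other genes. The mRNAs code for core subunits of the respiratory chain, and the ribosomal and transfer RNAs serve the ribosome inside mitochondria that translates them. The other subunits of the chain, and all proteins that copy, transcribe, process and translate the mitochondrial genome, come from the nucleus. Heart muscle is rich in mitochondria.

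Of the 13 mRNAs, 7 code for complex I (NADH dehydrogenase, mt-Nd1 to mt-Nd6 with mt-Nd4l), 1 for complex III (mt-Cytb), 3 for complex IV (cytochrome c oxidase, mt-Co1 to mt-Co3) and 2 for complex V (ATP synthase, mt-Atp6 and mt-Atp8). In mouse (GRCm38, chromosome M), mt-Nd6 and 8 of the 22 transfer RNAs lie on the minus strand and the other genes on the plus strand. The genes are packed so tightly that 16 of the 37 overlap another member. The counts do not say from which strand a read came, as the strand setting of the library and of the counting is not given in the sources used here, so reads from a gene and from the RNA opposite to it cannot be told apart.

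The 8 mouse members that differed between groups in any comparison are shown here with their sequences, 5′ to 3′ on their own strand, from GENCODE M21 transcripts of GRCm38. In the transfer RNAs, capitals mark bases that lie inside another mitochondrial gene. The transfer RNAs for isoleucine and glutamine (mt-Ti at chrM:3706-3774, plus strand, and mt-Tq at chrM:3772-3842, minus strand) share 3 bases on opposite strands, and mt-Ti begins inside mt-Nd1. Those for alanine, asparagine, cysteine and tyrosine (mt-Ta, mt-Tn, mt-Tc and mt-Ty, minus strand) follow one another within chrM:5018-5326, between mt-Nd2 and mt-Co1. The one for glutamate, mt-Te, lies at chrM:14071-14139 on the minus strand.
mt-Ti: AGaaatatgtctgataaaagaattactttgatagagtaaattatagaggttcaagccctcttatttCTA
mt-Tq: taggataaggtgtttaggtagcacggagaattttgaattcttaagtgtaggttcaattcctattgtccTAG
mt-Ta: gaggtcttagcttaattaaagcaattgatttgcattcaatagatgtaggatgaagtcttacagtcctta
mt-Tn: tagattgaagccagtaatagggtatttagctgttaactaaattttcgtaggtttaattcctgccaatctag
mt-Tc: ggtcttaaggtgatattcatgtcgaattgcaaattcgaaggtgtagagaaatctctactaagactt
mt-Ty: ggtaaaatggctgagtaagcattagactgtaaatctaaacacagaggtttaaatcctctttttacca
mt-Te: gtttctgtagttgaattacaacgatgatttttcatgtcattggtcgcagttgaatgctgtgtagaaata
The only mRNA among the 8 is mt-Nd3 (chrM:9459-9806, plus strand), of which the first 100 bases are given. The capital marks the only base of 345 compared that differs from a pseudogene copy of it in the nuclear genome, Gm28438, as T3C counted from the start of the gene.
mt-Nd3: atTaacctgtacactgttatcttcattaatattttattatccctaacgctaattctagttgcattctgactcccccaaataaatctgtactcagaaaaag

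Such nuclear copies bear on every count below. Sequence comparison found 16 annotated nuclear pseudogenes with at least 90% identity to 11 of the mouse members over at least 100 bases, and 7 of them lie in a single stretch of 4663 bases at chr1:24611535-24616197. The counts at Gm10925, Gm28661, Gm28437, Gm28438 and Gm10222 were nearly equal to those at mt-Atp6, mt-Co2, mt-Co3, mt-Nd3 and mt-Nd4l. At 1 month, for example, the ratio of the mean counts was 1.0009 for Gm28438 and mt-Nd3 and 0.998 for Gm28661 and mt-Co2. Gm29216, which matches only the end of mt-Co1, had 0.378 of the count of mt-Co1, and Gm13340 on chromosome 2, which is 97.61% identical over the whole gene, had 0.28. A window of 100 bases of mt-Co1 (chrM:6410-6509) and the same window of both copies shows how alike they are, with capitals where a copy differs.
mt-Co1: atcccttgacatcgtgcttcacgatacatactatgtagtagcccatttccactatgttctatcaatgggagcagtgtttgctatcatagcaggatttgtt
Gm29216: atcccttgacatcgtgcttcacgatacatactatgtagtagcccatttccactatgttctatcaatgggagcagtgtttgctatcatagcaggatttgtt
Gm13340: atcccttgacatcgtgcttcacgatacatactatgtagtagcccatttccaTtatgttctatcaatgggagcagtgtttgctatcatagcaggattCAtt
In this window Gm29216 had 0 differences and Gm13340 had 3. The 16 copies together took 14.5% to 20.9% of the counts of a mouse library. Whether a read belongs to a mitochondrial gene or to its copy could not be told from the counts, so the levels of members with a well-filled copy are uncertain. The copies of mt-Cytb and mt-Nd6 held few counts, at 0.0001 and 0.0029 of those of the member at 1 month. How the counting treated reads with several matches is not given in the sources used here.

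The targeted gene was checked first. Mettl5 ranged from 4.50 to 5.93 CPM (counts scaled to a common library size by TMM, edgeR's trimmed mean of M values) in the 1-month control hearts and from 5.26 to 6.70 in those labelled METTL5-KO. It also overlapped between the groups at 3 months (6.86 to 8.11 against 5.60 to 7.28) and after TAC (5.61 to 7.13 against 5.60 to 7.31). The count covers the whole gene, not the floxed exons alone, so it does not settle the genotype, and the hearts are called by their label throughout. At 3 months and after TAC it also covers cells other than cardiomyocytes, which does not apply to the whole-body knockout at 1 month. The study reports that reads over the floxed exons were nearly absent in METTL5-cKO hearts. In the NRVMs, rat Mettl5 was at 16.2 to 18.02 CPM with AdGFP and 19.1 to 23.0 with AdMETTL5, while the virus carries the human gene.

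Mitochondrial transcripts took a large share of every library. In the control hearts, all members together held 33.7%, 40.6%, 48.1% and 43.8% of the counts at 1 month, 34.1%, 36.0%, 34.6% and 33.6% at 3 months, and 35.6%, 34.8%, 35.1% and 34.5% after TAC. The 1-month control libraries were thus the most uneven. Nearly all of this share was mRNA, with 32.2% to 45.9% of library counts at 1 month in the control group, whereas the 2 ribosomal RNAs held 0.910% to 2.00% and the 22 transfer RNAs 0.345% to 0.486% across the 3 control groups. How the libraries selected RNA is not given in the sources used here. Counts at a transfer RNA gene therefore cannot be read as amounts of mature transfer RNA. Reads from uncut precursors or from the opposite strand cannot be told apart from it. Below, transfer RNA stands for counts at these genes.

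The total share overlapped between genotypes at 1 and 3 months. Hearts labelled METTL5-KO held 40.3%, 43.5%, 39.2% and 42.1% on mitochondrial transcripts at 1 month, inside the range of the controls, with means of 41.2% ± 1.90 against 41.5% ± 6.04 (SD, n = 4). At 3 months the hearts labelled METTL5-cKO held 33.5%, 34.2%, 33.2% and 35.9%, again overlapping the controls, with means of 34.2% ± 1.22 against 34.5% ± 1.04 (SD, n = 4). Of the classes, only the plus-strand transfer RNAs did not overlap there, at 0.0467% to 0.0561% of counts against 0.0569% to 0.0631% in controls.

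After TAC the share was lower in 3 of 4 hearts labelled METTL5-cKO. They held 32.4%, 31.9%, 30.6% and 35.6%, and the fourth lay within the control range of 34.5% to 35.6%. The means were 32.6% ± 2.12 and 35.0% ± 0.472 (SD, n = 4), a difference of -2.40 percentage points. Library 4 was the highest of its group here, but the outlier check given below (Dixon's ratio) did not flag it. Singling it out, here and in what follows, was done after seeing the data. Without library 4 the difference was -3.39 percentage points and the groups did not overlap. In points, the difference also changed with the handling of the nuclear copies. It was -3.71 with the copies left out of the total and -4.20 with them added to the members, both alternatives chosen after seeing the data. The control means were then 42.2% and 52.1%, so these points stand on different bases. The classes did not share the difference of -2.40 evenly. Counts at transfer RNA genes lay below the control range in all 4 hearts, with 0.371%, 0.315%, 0.314% and 0.414% against 0.432% to 0.486%. Ribosomal RNAs held 1.00%, 0.787%, 0.782% and 1.41% against 1.08%, 1.94%, 2.00% and 1.72%, so the groups overlapped through library 4 of the hearts labelled METTL5-cKO and control library 1. The mRNAs held 31.0%, 30.8%, 29.5% and 33.7% against 34.1%, 32.4%, 32.6% and 32.4%. Among the mRNAs, those of complex IV did not overlap (11.8% to 13.4% of library counts against 13.8% to 14.1%), whereas those of complex I did (10.7% to 12.3% against 11.2% to 12.3%). In percentage points, the differences of the means were -0.0985 for transfer RNA, -0.687 for ribosomal RNA, -1.62 for mRNA and -1.48 for the mRNAs of complex IV, and without library 4 they were -0.119, -0.827, -2.45 and -1.81. The nuclear copies moved alongside, with 14.5% to 16.7% against 16.8% to 17.5% of library counts, and so entered the total by which each share is divided.

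**Figure D1:**
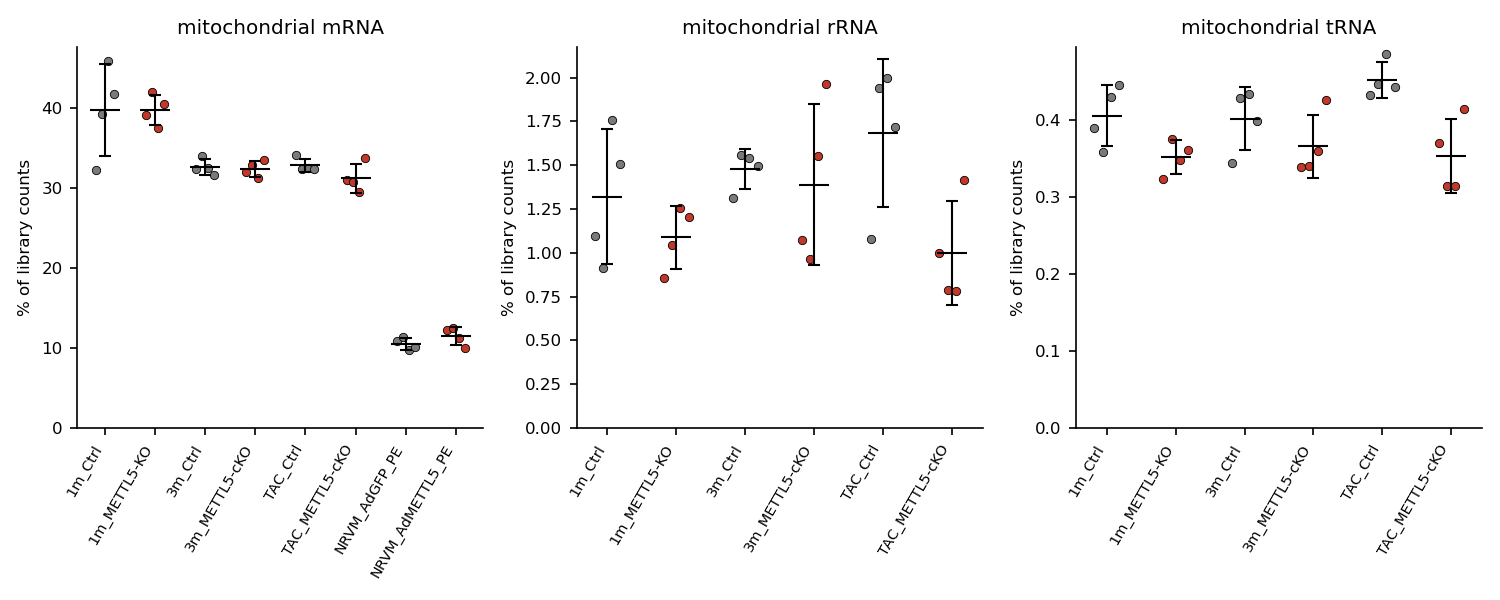
Share of library counts (y axis, %) on mitochondrial mRNA, rRNA and tRNA in each group (x axis), 1 point a library with the mean and SD of 4 libraries as bar and whiskers, controls and AdGFP grey, the other groups red. The tRNA share after TAC is 0.314% to 0.414% in the hearts labelled METTL5-cKO and 0.432% to 0.486% in the controls, and NRVM mRNA sits between 9.72% and 12.5%.

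In single members, the test across all genes (the quasi-likelihood test of edgeR, adjusted by Benjamini-Hochberg and called at an adjusted p under 0.05) found no difference at 1 month. Of the 37 members, 36 passed the filter on low counts and 0 were called, against 0.00612% of all 16329 genes tested. At an unadjusted p under 0.05 there was 1 member, beside 4.57% of all genes. The log2 fold changes ran from -0.61 to 0.82 with a median of -0.14, beside a median of -0.01 over all genes tested. The smallest p-values were those of the transfer RNAs for aspartate, serine and glycine. The first of these, mt-Td, had 38.4, 33.7, 62.8 and 42.2 CPM in the control hearts and 26.9, 40.8, 27.4 and 31.7 in those labelled METTL5-KO (log2 fold change -0.48, standard error 0.209, edgeR adjusted p = 0.973). The groups overlapped, as they did for all members, where 3.01% of all genes had groups apart. For mt-Ts1 the log2 fold change was -0.40 (standard error 0.191) and for mt-Tg, at only 1.99 to 12.0 CPM, it was 0.82 (standard error 0.517). The mRNA with the most counts, mt-Co1, was at -0.16 in log2 fold change (standard error 0.268), and mt-Nd6, the only minus-strand mRNA, at -0.03 (standard error 0.221). The ribosomal RNAs mt-Rnr1 and mt-Rnr2 had -0.34 (standard error 0.328) and -0.43 (standard error 0.305). Control library 3 was the highest of the 4 for both, at 7204 and 14903 CPM. Summed atrial markers lay apart at 1 month, at 123 to 722.5 CPM in controls and 61.0 to 94.5 in the hearts labelled METTL5-KO. Erythroid markers overlapped, at 337 to 3272.5 and 584 to 1425. No marker of either list was called, and their part was not tested.

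At 3 months 0 of the 37 members were called, against 0.0732% of 16391 genes (0.0244% lower and 0.0488% higher), and 7 had an unadjusted p under 0.05, all of them transfer RNAs, beside 7.05% of all genes. The log2 fold change was below 0 for 34 members and above 0 for mt-Tf, mt-Nd4l and mt-Nd6, with a median of -0.14 beside 0.00 over all genes. It was -0.03 for the mRNAs and -0.31 for the transfer RNAs. The smallest p was that of mt-Tg, with 11.1, 10.2, 16.96 and 15.1 CPM in the controls and 10.5, 7.30, 9.02 and 8.99 in the hearts labelled METTL5-cKO (log2 fold change -0.58, standard error 0.180, edgeR adjusted p = 0.487). The transfer RNAs for leucine (mt-Tl1) and tryptophan (mt-Tw) followed with -0.25 (standard error 0.0897) and -0.31 (standard error 0.118). Groups did not overlap for 1 member, mt-Co1, with 85001, 90138, 81757 and 84436 CPM against 80358, 76374, 74657 and 80904 (log2 fold change -0.13, standard error 0.0832, edgeR adjusted p = 0.881). Among all genes tested, 4.23% had groups that did not overlap, 2.04% with the second group lower. Summed cardiomyocyte markers also lay apart in these libraries, at 46590 to 50521 CPM in controls and 41784 to 46037. So did atrial markers, a list that holds Nppa, at 94.7 to 157 and 204 to 339. The part of these markers was not tested. For mt-Nd6 the log2 fold change was 0.05 (standard error 0.125), for mt-Rnr1 -0.07 (standard error 0.220) and for mt-Rnr2 -0.17 (standard error 0.226).

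After TAC, 8 of the 37 members were called and all 8 were lower in the hearts labelled METTL5-cKO, which is 21.6% of members beside 6.1% of 16340 genes called lower and 6.57% called higher. They were mt-Nd3 and the transfer RNAs mt-Ti, mt-Tq, mt-Ta, mt-Tn, mt-Tc, mt-Ty and mt-Te, the genes whose sequences stand above. Of the 8 minus-strand transfer RNAs 6 were called, and of the 14 on the plus strand 1, mt-Ti, which overlaps the minus-strand mt-Tq. The minus-strand ones not called, mt-Ts1 and mt-Tp, had log2 fold changes of -0.39 and -0.24. Calls on both strands were not on an equal footing, as minus-strand genes held 89.2% of transfer RNA counts in controls. In the hearts labelled METTL5-cKO they held 88.7%, and the groups overlapped. Some plus-strand genes had few counts, such as mt-Tf at 0.788 to 2.03 CPM. As mean shares of library counts, minus-strand ones held 0.314% against 0.4035% in controls. Plus-strand ones held 0.0401% against 0.0487%, and only these overlapped. The median log2 fold change was -0.72 over the minus-strand transfer RNAs, -0.18 over the plus-strand ones, -0.15 over the mRNAs and -0.29 over all members, beside 0.00 over all genes tested. Without library 4 these 4 medians were -0.92, -0.34, -0.26 and -0.38.

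The largest differences were those of mt-Ti and mt-Tq. In the control hearts mt-Tq was at 301, 375, 438 and 376 CPM and in the hearts labelled METTL5-cKO at 129, 119, 96.5 and 260, without overlap (log2 fold change -1.30, standard error 0.283, edgeR adjusted p = 0.0211). Its neighbour mt-Ti was at 110, 157, 179 and 142 CPM against 50.6, 44.5, 39.2 and 102, also without overlap (log2 fold change -1.32, standard error 0.290, edgeR adjusted p = 0.0220). In both, library 4 lay closest to the controls. The 4 minus-strand transfer RNA genes between mt-Nd2 and mt-Co1 had nearly equal log2 fold changes of -0.72 for mt-Ta, -0.72 for mt-Tn, -0.78 for mt-Tc and -0.73 for mt-Ty. Of these mt-Tc did not overlap between groups, at 191, 243, 235 and 242 CPM against 141, 112, 97.8 and 177 (standard error 0.174, edgeR adjusted p = 0.0229). The others overlapped only through library 4 and control library 1. For mt-Ty, the latter were at 128.3 and 128.2 CPM. The plus-strand mt-Tw, which lies in the same stretch, was not called. The glutamate transfer RNA mt-Te was at 1023, 914, 960 and 908 CPM against 758, 675.5, 635 and 850 (log2 fold change -0.38, standard error 0.104, edgeR adjusted p = 0.0419).

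**Figure D2:**
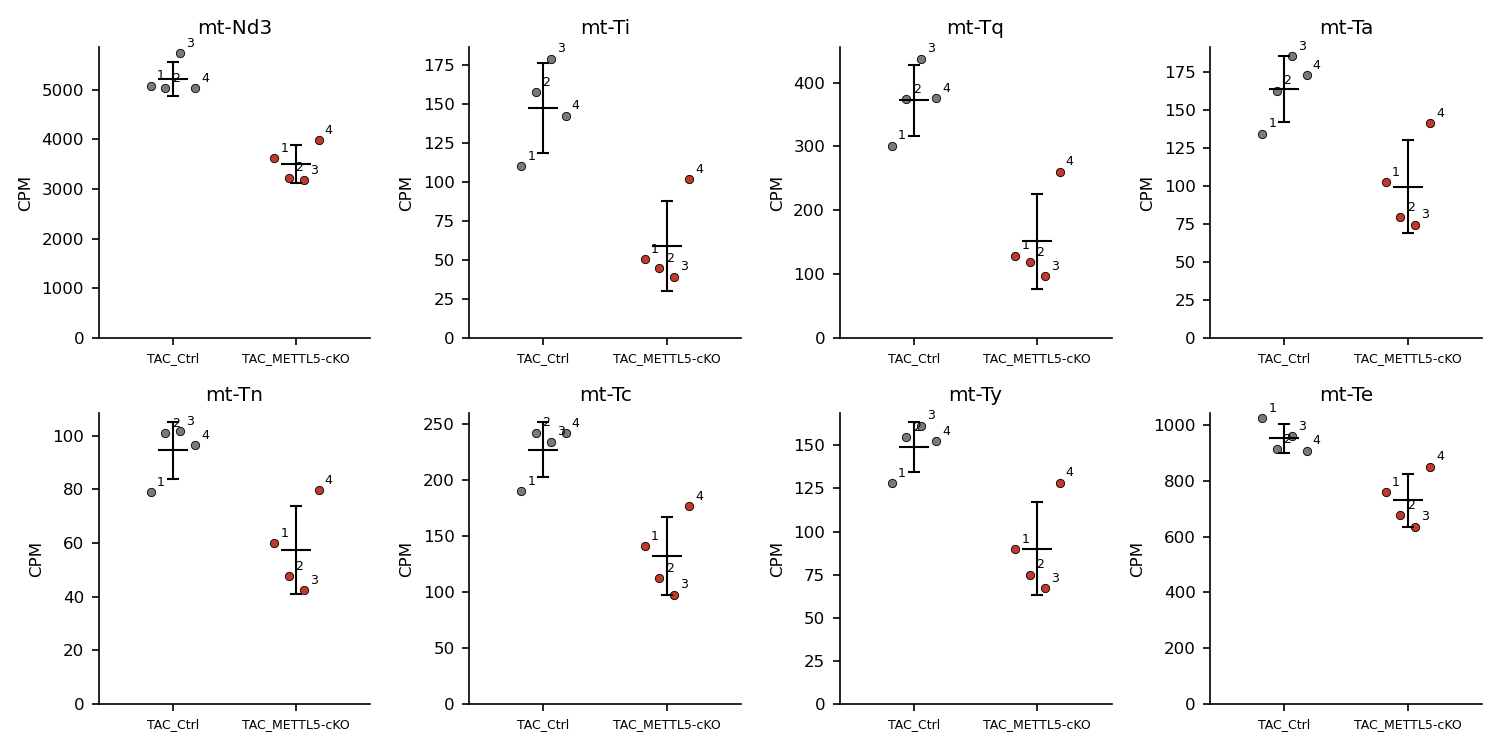
CPM (y axis) of the 8 mitochondrial transcripts called after TAC in the 4 control libraries (grey) and the 4 labelled METTL5-cKO (red), numbered by library, with the mean and SD. Library 4 is the highest of its group in every panel, and mt-Nd3 lies at 3173 to 3982 CPM in the red group and 5028 to 5731 in the grey.

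Of the mRNAs only mt-Nd3, a small membrane subunit of complex I, was called. It was at 5084, 5039, 5731 and 5028 CPM in the control hearts and 3617, 3230, 3173 and 3982 in those labelled METTL5-cKO, so every library of the second group lay below every control (log2 fold change -0.58, standard error 0.106, edgeR adjusted p = 0.0139). The groups also did not overlap for mt-Co2 and mt-Co3, with log2 fold changes of -0.38 (standard error 0.138) and -0.41 (standard error 0.128). The remaining complex IV mRNA, mt-Co1, had -0.23 (standard error 0.133, edgeR adjusted p = 0.268). For mt-Nd6 the value was -0.15 (standard error 0.124, edgeR adjusted p = 0.442). Values above 0, none of them called, were found for mt-Atp8 (0.31, standard error 0.154), mt-Nd4l (0.11) and mt-Nd2 (0.10) among the mRNAs. The ribosomal RNAs missed the threshold, with -0.78 (standard error 0.284, edgeR adjusted p = 0.0964) for mt-Rnr1 and -0.92 (standard error 0.267, edgeR adjusted p = 0.0518) for mt-Rnr2. In mt-Rnr2 the controls were at 7478, 13860, 13438 and 11700 CPM and the hearts labelled METTL5-cKO at 5959, 4823, 4451 and 9370.

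The number of calls depended on single libraries. Without control library 2, 3 or 4 it was 1, and without control library 1 it was 8. Without library 1, 2 or 3 of the hearts labelled METTL5-cKO it was 2, 0 and 3, and without library 4 it was 20, all lower, beside 11.6% of all genes then called lower. For the other fits the share of all genes is not given here. Whether calls were lost among the members or across all genes can therefore not be read from these counts. With that library left out, the log2 fold change was -1.71 for mt-Ti, -1.69 for mt-Tq, -0.93 for mt-Ta, -0.91 for mt-Tn, -0.95 for mt-Tc, -0.94 for mt-Ty, -0.46 for mt-Te and -0.64 for mt-Nd3. It was -1.09 for mt-Rnr1, -1.19 for mt-Rnr2, -0.31 for mt-Co1 and -0.26 for mt-Nd6, and these 4 were then past the threshold as well. The direction of the 8 called members was the same whichever library was left out. With so little overlap between their groups, it could hardly have turned. Groups did not overlap for 9 members, all lower, and for 22 without library 4, where 9.16% and 17.4% of all genes did so.

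Other features of the TAC hearts moved with these values. Summed markers of fibroblasts were at 923 to 2983 CPM in the hearts labelled METTL5-cKO against 578 to 766 in controls, with 7 of 8 markers called higher. Macrophage markers were at 235 to 292 against 171 to 224, with 2 of 6 called higher. Endothelial markers were at 407 to 536 against 584 to 697, with 5 of 6 called lower, and cardiomyocyte markers at 34065 to 43671 against 45256 to 49888, with 3 of 9 called lower. Atrial markers were at 2222 to 6157 against 339 to 547, with 1 of 2 tested called higher and 1 of 4 at 0 in all libraries. Skeletal muscle markers were at 2867 to 3618 against 808 to 1322, with 1 of 3 tested called higher and also 1 of 4 at 0. Adipocyte markers were at or near 0. The atrial list holds Nppa and the skeletal muscle list Acta1, which the study reports as raised in METTL5-cKO hearts after TAC. These sums therefore need not stand for a cell type. The part of all these markers in the mitochondrial values was not tested. In whole hearts, fewer cells of a type and less RNA per cell cannot be told apart.

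**Figure D3:**
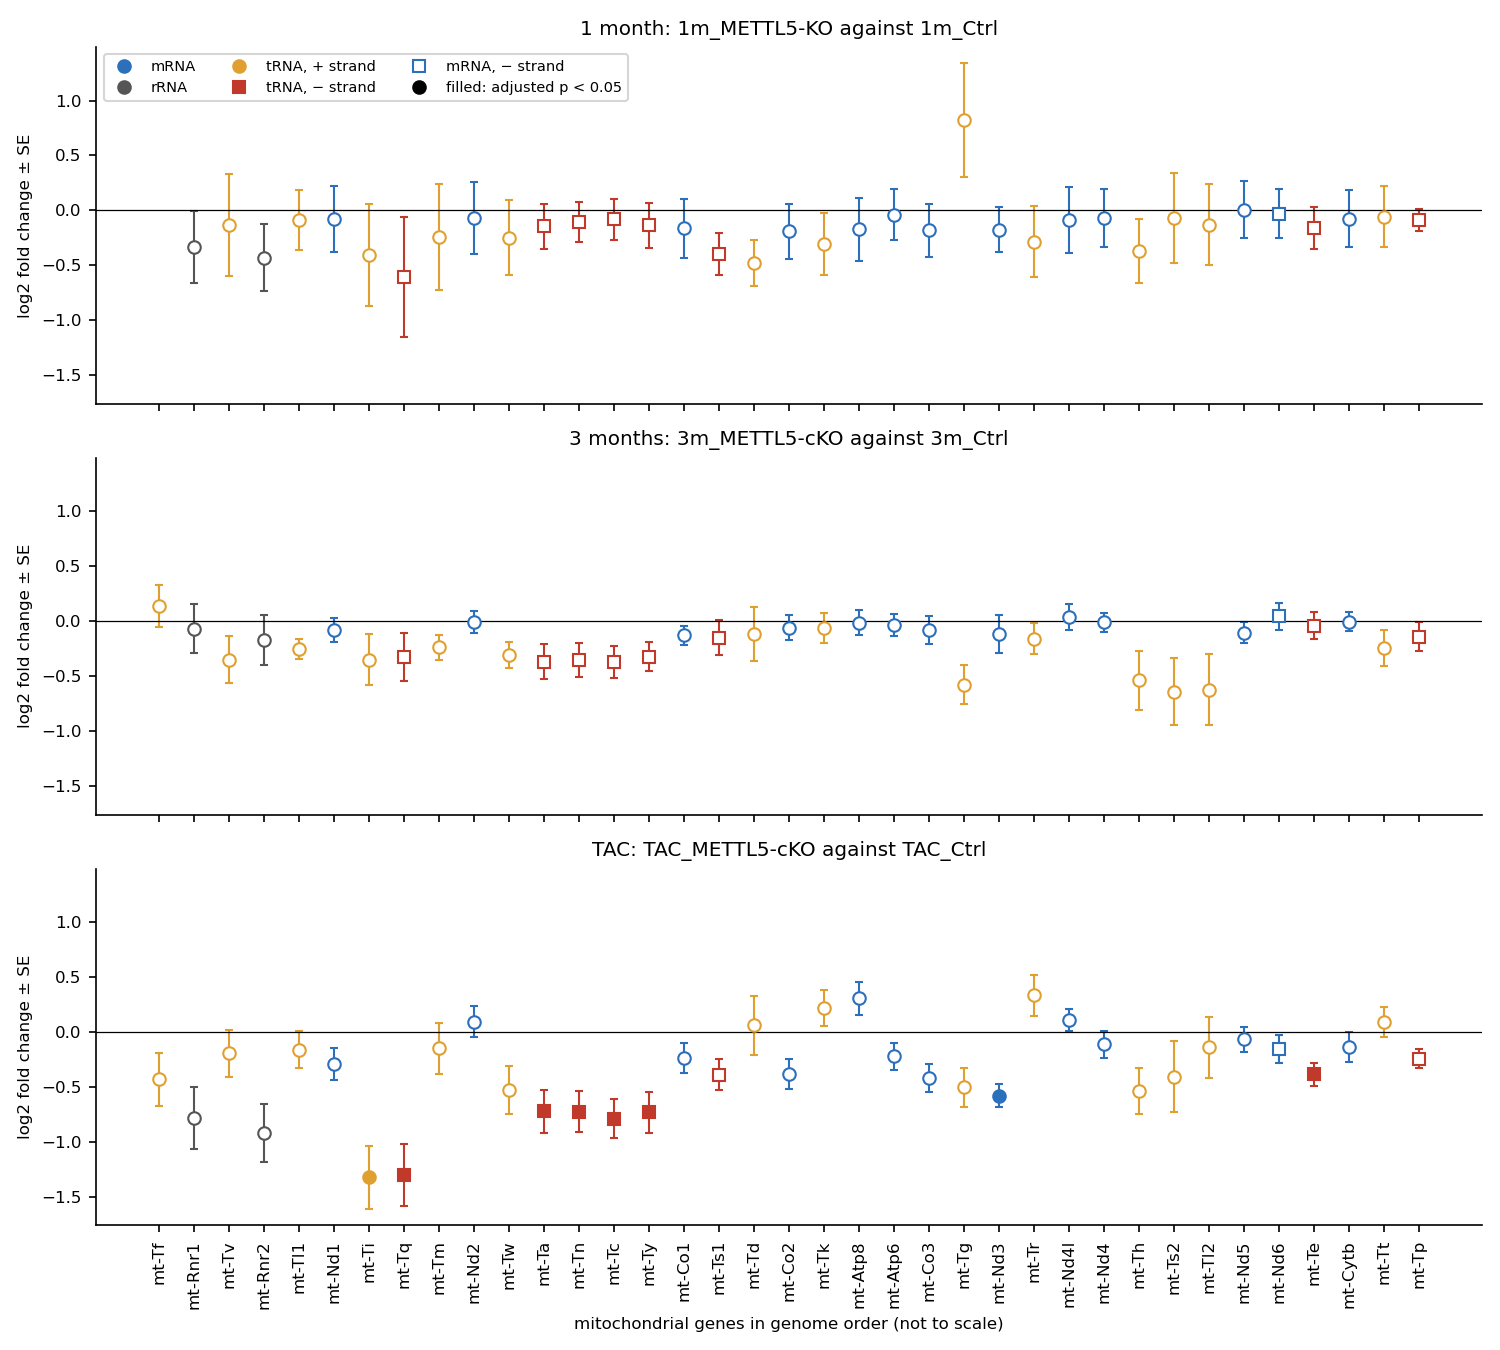
Log2 fold change with its standard error (y axis) of each mouse mitochondrial gene in genome order (x axis, not to scale) at 1 month, 3 months and after TAC, hearts labelled knockout against control. Squares are minus-strand genes and filled symbols passed an adjusted p under 0.05, and in the TAC panel mt-Ti and mt-Tq reach -1.32 and -1.30 and the 4 transfer RNAs from mt-Ta to mt-Ty lie between -0.72 and -0.78.

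Whether the genotype effect differed between TAC and the 3-month hearts was tested as an interaction over both tables. Of 37 members 0 passed, against 0.00586% of 17070 genes. An unadjusted p under 0.05, for which the share of all genes is not given here, was found for 3 members. These were mt-Tq, mt-Ti and mt-Nd3, with differences in log2 fold change of -0.96 (standard error 0.385, edgeR adjusted p = 0.343), -0.96 (standard error 0.401) and -0.45 (standard error 0.201). The differences were -0.70 for mt-Rnr1, -0.74 for mt-Rnr2, -0.18 for mt-Nd6 and -0.09 for mt-Co1. Without library 4 of the TAC hearts labelled METTL5-cKO 2 members passed, mt-Tq (-1.37, edgeR adjusted p = 0.0185) and mt-Ti (-1.36, edgeR adjusted p = 0.0294), while 3.91% of all 17353 genes then passed, 1.77% with a negative difference. The 6 transfer RNAs from mt-Ti to mt-Ty that were called after TAC had log2 fold changes of -0.35, -0.32, -0.37, -0.35, -0.37 and -0.32 at 3 months without a call. The uncalled mt-Tm and mt-Tw, which lie among them, are not included.

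Within the mRNAs the balance between genes also moved after TAC. Taking each mRNA as a share of all mitochondrial mRNA counts removes the total. The share of mt-Nd3 was 1.40%, 1.48%, 1.70% and 1.48% in the controls and 1.22%, 1.13%, 1.23% and 1.12% in the hearts labelled METTL5-cKO. That of mt-Co3 was 9.28% to 10.2% against 8.36% to 8.54%, and that of mt-Co2 6.82% to 7.52% against 6.13% to 6.78%. The opposite was seen for mt-Nd2 (4.40% to 5.35% against 5.73% to 6.17%), mt-Nd5 (4.30% to 4.65% against 4.72% to 5.12%), mt-Nd4l (0.583% to 0.643% against 0.726% to 0.828%) and mt-Cytb (12.9% to 13.3% against 13.6% to 14.1%). None of these 7 overlapped between groups, with library 4 included, and they were named for that reason. By CPM rather than by share, 18.6% of all genes tested did not overlap in either direction after TAC. The shares are bound to add up, so a lower share of some genes raises that of others. The share of mt-Co1 did overlap, at 25.03% to 25.7% against 24.5% to 25.6%.

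**Figure D4:**
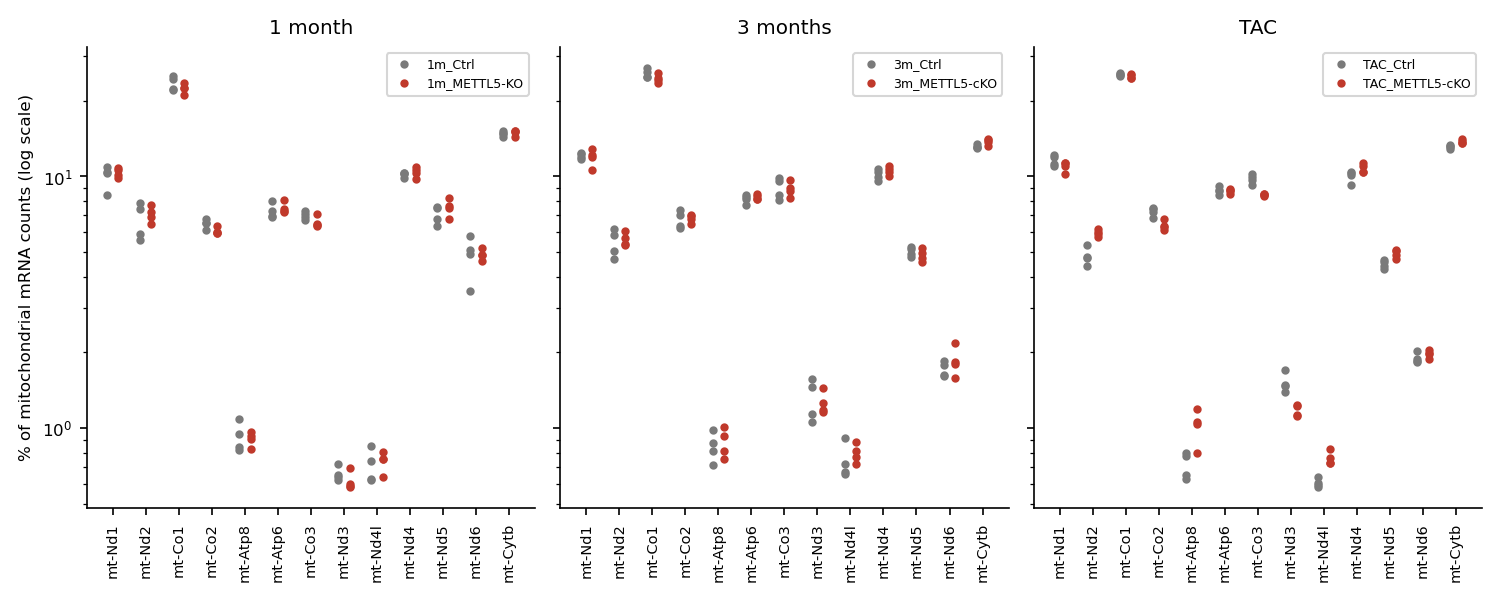
Share of mitochondrial mRNA counts (y axis, %, log scale) held by each of the 13 mRNAs in genome order (x axis) at 1 month, 3 months and after TAC, 1 point a library, controls grey and hearts labelled knockout red. After TAC mt-Nd3 lies between 1.12% and 1.23% in red and 1.40% and 1.70% in grey, and mt-Nd6 sits higher at 1 month (3.51% to 5.80%) than in the other panels.

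For mt-Nd6 and mt-Nd3, picked out after their values were seen, the balance also differed between the tables. Across all 8 libraries of a table, mt-Nd6 held 3.51% to 5.80% of mitochondrial mRNA counts at 1 month, 1.58% to 2.19% at 3 months and 1.84% to 2.05% after TAC. For mt-Nd3 the order was the other way, with 0.585% to 0.719% at 1 month, 1.06% to 1.57% at 3 months and 1.12% to 1.70% after TAC. The control hearts alone lay as far apart, with mt-Nd6 at 3.51% to 5.80%, 1.61% to 1.85% and 1.84% to 2.02%. Between the 1-month and 3-month controls, age and the making of each table cannot be told apart, and no test was made. Per length, mt-Co1 was the highest mRNA in the controls of each mouse table, with medians of 60618, 54834 and 56483 CPM per kilobase at 1 month, 3 months and after TAC. The level of mt-Nd6 was 41006, 10737 and 12673 CPM per kilobase, and that of mt-Rnr2 5407, 6634 and 7945. Nuclear copies add uncertainty to the mt-Co1 values.

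In the NRVMs, mitochondrial mRNA held 10.8%, 11.3%, 9.72% and 10.2% of counts with AdGFP and 12.3%, 12.5%, 11.2% and 9.99% with AdMETTL5. The groups overlapped, with means of 10.5% ± 0.709 and 11.5% ± 1.16 (SD, n = 4). Across the genes of these libraries 52.8% of 15041 genes were called, whereas 0 of the 13 mitochondrial mRNAs were, and 0 had an unadjusted p under 0.05. Groups overlapped for all 13, while 48.4% of all genes had groups apart. Their log2 fold changes ran from -0.14 to 0.08 with a median of 0.01, beside 0.00 over all genes. The smallest p was that of Mt-nd5, at 4700, 5124, 4023 and 4546 CPM with AdGFP and 4612, 4733, 4157 and 3248 with AdMETTL5 (log2 fold change -0.14, standard error 0.110, edgeR adjusted p = 0.325). Library 4 with AdMETTL5 was the lowest. Mt-nd6 had -0.14 (standard error 0.133), Mt-nd3 -0.13 (standard error 0.152) and Mt-co1 -0.04 (standard error 0.0942), and scaling by library size alone turned the sign of the last pair. Mt-nd5 was the only mRNA whose share of mitochondrial mRNA did not overlap between the viruses, at 4.05% to 4.35% against 3.49% to 3.90%. Mt-co1 held 43.8% to 46.4% of mitochondrial mRNA counts over both groups. Rat nuclear copies were not analysed here.

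The nuclear genes of the same complexes were compared next, from a list of subunits. After TAC 43 of 79 were called lower and 0 higher in the hearts labelled METTL5-cKO, beside 6.1% and 6.57% of all genes, with a median log2 fold change of -0.41 beside 0.00 over all genes: 24 of 37 of complex I, 3 of 9 of complex III, 8 of 15 of complex IV and 8 of 18 of complex V. The mitochondrial mRNAs of the same complexes had 1 of 13 called and a median of -0.15. Cox7a1, a muscle form of a complex IV subunit, went from 472 ± 40.4 to 221 ± 63.8 CPM (SD, n = 4), or -1.09 in log2 fold change (standard error 0.176, edgeR adjusted p = 0.00994). Ndufa3 of complex I, Uqcrc1 of complex III and Atp5h of complex V had -0.63, -0.56 and -0.46. This count also rested on single libraries, at 71 without library 4 of the hearts labelled METTL5-cKO and between 1 and 25 without any other single library, the 1 being without library 2 of the same group. Without that library 4, 11.6% of all genes were called lower. For the other fits the share of all genes is not given here. A change in the list can therefore not be told from one across all genes. At 1 and 3 months 0 of 79 were called.

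In the NRVMs, 72 of 77 entries of nuclear subunit genes were called lower with AdMETTL5 and 0 higher, beside 25.7% and 27.1% of all genes. Their median log2 fold change was -0.45. Complex I had 34 of 36, complex III 10 of 10, complex IV 12 of 14 and complex V 16 of 17 called lower. These are counts of entries, as some rat symbols have more than 1. The 36 entries of complex I carry 35 symbols and the 10 of complex III carry 9. The 5 not called, picked out after their values were seen, were Ndufa12, Ndufs7, Cox6a1, Cox4i2 and Atp5if1. Cox6a2, the heart and muscle form of a complex IV subunit, went from 1281 ± 139 to 578 ± 77.3 CPM (SD, n = 4), or -1.15 in log2 fold change (standard error 0.0983, edgeR adjusted p = 1.72e-06). Ndufb10 of complex I had -0.89, Uqcrc1 of complex III -0.58 and Atp5pf of complex V -0.82. The mitochondrial mRNAs of complexes I, III, IV and V had medians of -0.01, 0.07, -0.02 and 0.07 in the same libraries. Cardiomyocyte markers moved with the nuclear values, at 16124 to 17903 CPM with AdMETTL5 against 42130 to 52042 with AdGFP, with 9 of 9 called lower. Fibroblast markers were at 9104.5 to 10034 against 11523 to 12135 (6 of 7 called lower) and atrial markers at 1799 to 2681 against 7944 to 12570 (4 of 4 lower). Macrophage markers were at 62.4 to 76.3 against 89.0 to 106 (2 of 4 tested lower) and skeletal muscle markers at 627 to 761 against 1045 to 1361.5 (3 of 4 lower). Endothelial markers were at 50.4 to 55.03 against 37.9 to 41.4 (1 of 4 tested called higher). Smooth muscle markers overlapped, at 3202 to 3702 against 2675 to 3390 (2 of 4 called higher). The part of these markers in the values was not tested.

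**Figure D5:**
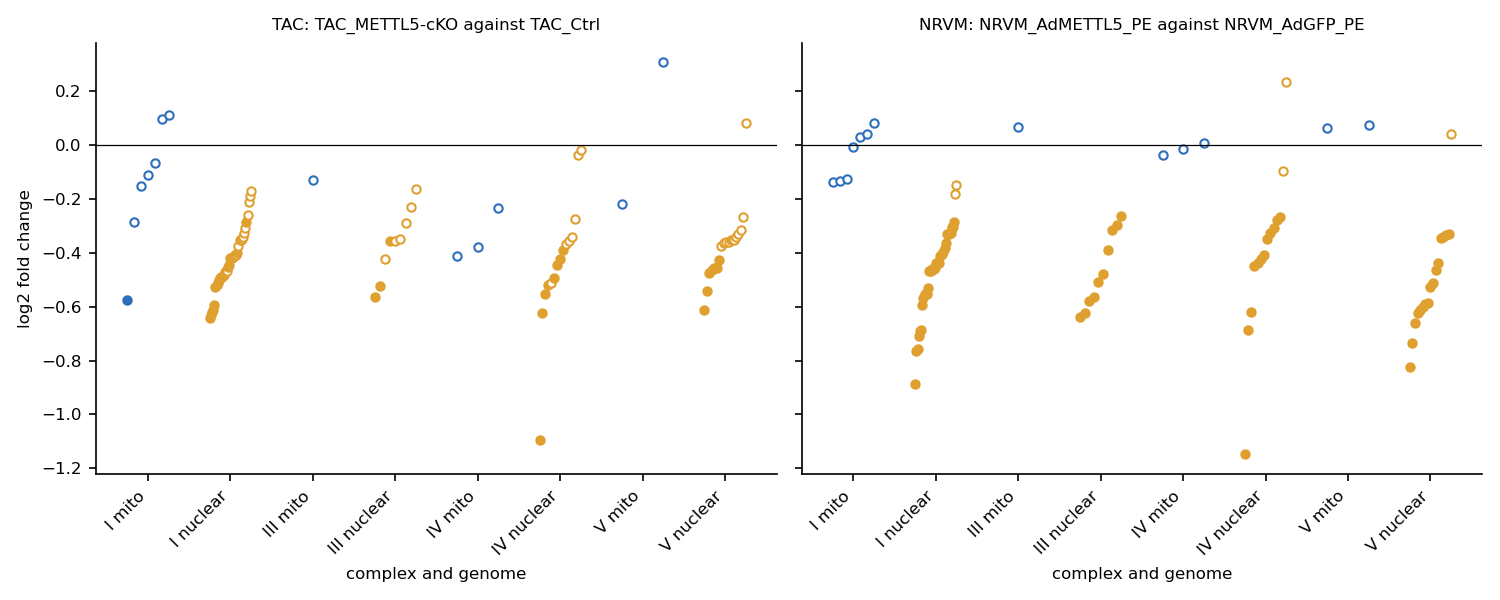
Log2 fold change (y axis) of the mitochondrial (blue) and nuclear (orange) genes of complexes I, III, IV and V (x axis) after TAC and in the NRVMs, 1 point an entry, filled where the adjusted p was under 0.05. In the NRVMs the mitochondrial genes lie between -0.14 and 0.08 while 72 of 77 nuclear entries, some sharing a symbol, are called lower.

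Genes that maintain, transcribe, process and translate the mitochondrial genome formed a second list. After TAC 9 of 77 were called lower and 1 higher in the hearts labelled METTL5-cKO, beside 6.1% and 6.57% of all genes, with a median of -0.16. Eral1, a chaperone of the small mitochondrial ribosomal RNA, went from 14.5 ± 0.612 to 11.0 ± 0.662 CPM (SD, n = 4), or -0.39 in log2 fold change (standard error 0.0764, edgeR adjusted p = 0.0161). Mgme1, a nuclease of mitochondrial DNA maintenance, and Tufm, a translation elongation factor, had -0.47 and -0.41. The gene called higher was Pde12, a deadenylase of mitochondrial RNA, with 0.35 (standard error 0.0904, edgeR adjusted p = 0.0375), named here after its value was seen. Leaving out library 2 of the hearts labelled METTL5-cKO or control library 4 brought the count of 10 to 0, and leaving out library 4 of the former brought it to 19. Other single libraries moved it by over 1.5 times, with 5 without control library 1, 1 without control library 2, and 2 and 3 without libraries 1 and 3 of the hearts labelled METTL5-cKO. Beside the 19, 11.6% of all genes were called lower, and for the other fits that share is not given here. Whether the list or all genes lost calls can therefore not be read from these counts. At 1 and 3 months 0 of 77 were called.

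In the NRVMs 23 of 72 of these genes were called lower with AdMETTL5 and 12 higher, beside 25.7% and 27.1% of all genes, with a median of -0.05. Pnpt1, a ribonuclease of mitochondrial RNA turnover, went from 40.7 ± 0.971 to 67.5 ± 6.00 CPM (SD, n = 4), or 0.73 in log2 fold change (standard error 0.0634, edgeR adjusted p = 1.95e-06). Pde12 rose by 0.61 on the log2 scale, and Hsd17b10, a subunit of the mitochondrial ribonuclease that trims transfer RNAs, fell by 0.56.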

How the data were processed

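Per the labels, total RNA was extracted from hearts and NRVMs and sequenced by a BGI protocol. The authors deposited StringTie estimated counts per gene as whole numbers (unit: expected counts), and the submitters' processing notes name HISAT2 2.0.4, StringTie 2.1.4, DESeq2 1.4.5, GRCm38 and Rnor_6.0. Here each of the 4 tables was fitted whole with edgeR 4.0.16 (R 4.3.3): TMM scaling, a filter at a minimum count of 10 (total 15), the quasi-likelihood test and Benjamini-Hochberg adjustment over all genes tested, called at an adjusted p under 0.05. The scripts were tested on simulated data. Members and lists were chosen with earlier results of these data known. Named were called members (at most 10 a comparison, or the 3 with the smallest p where fewer than 3 were called), mt-Nd6, mt-Co1, mt-Rnr1 and mt-Rnr2 always, and at most 3 called genes of each nuclear list; other genes named were picked after their values were seen. Shares over the members were given with no test. Libraries carry the labels' replicate number at 1 month and otherwise the order of the numbers in the column names. Nothing in the labels says that libraries came from separate animals or cultures, so p-values measure the spread between libraries, which may be technical. No pair of libraries agreed within sampling noise (chi-square over degrees of freedom was 2.2 for the closest). Nuclear copies were found with BLAST 2.17.0 on GENCODE M21 transcripts. Alternatives tried were DESeq2 1.42.0, other scalings and filters, a replicate block at 1 month, leaving out each library, and, chosen after seeing the data, removing the nuclear copies and repeating the list counts.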

Additional observations from a re-analysis of the deposited data

Results flagged for a closer look

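Among 86 groups of 4 libraries checked, 3 had a library far from the rest by Dixon's ratio, and chance alone gives about 1 in 20. Control library 1 after TAC had 34.1% of its counts on mitochondrial mRNA, the next being 32.6%. Control library 3 after TAC had 5731 CPM of mt-Nd3, the next being 5084, and control library 1 had 191 CPM of mt-Tc, the next being 235.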

How the results depend on the processing

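The members called at 1 month, at 3 months and in the NRVMs were 0 under every alternative run, and the difference of the mitochondrial share moved by less than the spread between libraries in those tables. After TAC the 8 members called became 4 with no filter on low counts and 2 with a log2 fold change over 1 asked for as well, and 0 to 20 when a library was left out. Members passing the interaction were 0 in all but 1 of these fits, with a range of 0 to 2 over left-out libraries. The TAC share difference of -2.40 percentage points became -3.99 without the 10 nuclear genes with most counts, copies included, in the total, and -4.20 with the copies added to the members, an alternative chosen after seeing the data. These points stand on other bases than the -2.40, with a control mean of 52.1% in the last case. The TAC machinery count of 10 became 4 by library size alone and 2 with no filter, and 0 to 19 without a library. The TAC respiratory chain count of 43 became 13 with no filter, and 1 to 71 without a library. The share of all genes called in most of these fits is not given here. Scaling by library size alone turned the log2 fold change of mt-Nd6 at 1 month to 0.0379, of Mt-nd3 to 0.01 and of Mt-co1 to 0.0989. Leaving out a library gave ranges across 0 for mt-Nd6 (-0.1756 to 0.0508) and mt-Co1 (-0.3133 to 0.0633) at 1 month, mt-Nd6 (-0.0438 to 0.1266) and mt-Rnr1 (-0.2906 to 0.0561) at 3 months, and Mt-nd3 (-0.2251 to 0.0213) and Mt-co1 (-0.0850 to 0.0295) in the NRVMs. The cause of these shifts was not tested. At 1 month the replicate numbers of the labels did not pair the libraries (correlations of same-numbered deviations of 0.239, 0.120, -0.107 and 0.0782), and the fit with the replicate block called 0 members. For the 3-month, TAC and NRVM tables: No paired analysis was possible because their columns could not be tied to the labels' replicate numbers in both groups. With 4 libraries a group and a standard error near 0.1 to 0.3, small differences were within the error for most members.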
